A study of Mus musculus with 2 samples.

Results

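The S100 genes described here are 8 genes of the 31053 in the deposited gene list, chosen by name from the S100 family of small calcium-binding proteins. They are S100g (ENSMUSG00000040808), S100a6 (ENSMUSG00000001025), S100a11 (ENSMUSG00000027907), S100a14 (ENSMUSG00000042306), S100a16 (ENSMUSG00000074457), S100a10 (ENSMUSG00000041959), S100a1 (ENSMUSG00000044080) and S100a13 (ENSMUSG00000042312). The rule is a list of names with no threshold on a value, but the list was drawn up with earlier results of these data known. All 8 passed the minimum of 10 UMIs (unique molecular identifiers, counts of single captured RNA molecules) that 15474 genes met. The study grew mouse small intestinal organoids, epithelial structures kept in culture, and its labels list a control library and a melatonin library, each built on culture day 3 from single cells of 3 pooled organoid lines. No genotype, strain, age or melatonin dose is given in the labels used here. The 3 deposited files are byte for byte the same for the 2 samples, so there is 1 matrix, whose barcodes end in suffix 1 (called set 1) or suffix 2 (set 2). Nothing ties a suffix to a treatment, so control and melatonin were not compared, the direction of a ratio of set 2 over set 1 is arbitrary, and there are no replicates and no p-values.

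S100 proteins carry a pair of EF hands, the helix-loop-helix fold that holds a calcium ion, and most act as calcium sensors that bind partner proteins such as annexins. S100g, also called calbindin-D9k, differs in that it buffers and carries calcium through the cytosol of absorptive enterocytes and is a classical target of vitamin D. S100a10 is an exception of another kind, since it has lost calcium binding and forms a stable complex with annexin A2. S100g lies on chromosome X between Ctps2 and Grpr, while the other members lie in a gene cluster on chromosome 3, where S100a1, S100a13, S100a14 and S100a16 are direct neighbours in that order, and S100a11 neighbours S100a10 (RefSeq gene table).

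The sequences upstream of 3 members are shown because these 3 carry the highest levels found in any class of cells: S100g in cells of the enterocyte class, and S100a6 and S100a11 together in a small class described below. Each is the 250 bases before the RefSeq gene start in GRCm38.p6, written 5′ to 3′ on the gene's own strand. The files' own genome build is not given in the sources used here. S100g spans chrX:162964600-162964849 (minus strand), S100a6 chr3:90612644-90612893 (plus strand) and S100a11 chr3:93520246-93520495 (plus strand). Capitals mark matches to an AP-1 motif, TGANTCA.
S100g: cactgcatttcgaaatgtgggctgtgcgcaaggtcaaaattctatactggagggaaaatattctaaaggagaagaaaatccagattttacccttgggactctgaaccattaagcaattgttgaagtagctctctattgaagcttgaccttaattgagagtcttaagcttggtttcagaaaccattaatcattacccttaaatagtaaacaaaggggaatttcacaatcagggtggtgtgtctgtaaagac
S100a6: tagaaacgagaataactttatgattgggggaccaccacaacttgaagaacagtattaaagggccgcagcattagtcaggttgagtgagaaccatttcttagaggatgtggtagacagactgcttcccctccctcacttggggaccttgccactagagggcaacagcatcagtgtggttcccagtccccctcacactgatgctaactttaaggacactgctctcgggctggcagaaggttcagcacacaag
S100a11: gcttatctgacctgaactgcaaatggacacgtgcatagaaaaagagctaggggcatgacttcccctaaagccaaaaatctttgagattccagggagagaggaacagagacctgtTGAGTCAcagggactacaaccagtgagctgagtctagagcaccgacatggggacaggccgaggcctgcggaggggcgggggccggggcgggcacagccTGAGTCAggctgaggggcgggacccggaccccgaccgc
On both strands, these windows were searched for the AP-1 motif TGANTCA, a TEAD motif (GGAATG) and a TATA box (TATAAA). The S100a11 window holds 2 AP-1 matches, at 136 to 130 and at 38 to 32 bases before the start, both reading TGAGTCA. The S100g and S100a6 windows hold none of the 3 motifs. Over 32851 mouse promoters of the same length, 6.75% hold the AP-1 letters, 12.6% the TEAD letters and 12.4% the TATA letters. A match is a description of letters, not a bound site.

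The stretch between S100a1 and S100a13 is shown because these 2 genes had the most similar profile of any pair of members. In the promoter table they start 105 bases apart and point away from each other, S100a1 on the minus strand and S100a13 on the plus strand, with 104 bases between them at chr3:90514331-90514434 (GRCm38.p6, plus strand shown).
S100a1 to S100a13: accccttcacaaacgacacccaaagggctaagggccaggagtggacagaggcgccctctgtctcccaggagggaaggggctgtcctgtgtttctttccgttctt
Its GC content is 58.7%, and none of the 3 motifs occurs in it. In the RefSeq gene table, which takes in all transcripts of a gene, the S100a13 model begins further upstream and overlaps the S100a1 model in part. Whether the counting used strand is not given in the sources used here.

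Of 21806 barcodes, 4066 were kept as cells: 2300 of 12364 in set 1, with 61628537 UMIs and a median of 29872 per cell, and 1766 of 9442 in set 2, with 51111519 UMIs and a median of 28759. Cells were placed in classes by markers that include no S100 gene: 279 and 269 enteroendocrine-gated cells in sets 1 and 2, 122 and 178 enterocyte-gated cells, 14 and 23 cells of a revival gate (genes of regenerating epithelium, among them Anxa1, Anxa3, Clu, Il1rn and Msln) and 25 and 9 goblet-gated cells. Cells in no gate were called stem-high (270 and 196), cycling (1172 and 583) or low-cycling (364 and 454) by stem and proliferation scores. A gate is a range of a score, not a sharp type: of the 312 cells past the enterocyte threshold 76 were within 2-fold above it and 165 cells within 2-fold below it, and for the revival gate the counts were 49, 8 and 20. Of 109 goblet-gated cells 75 also passed another gate, so that class is not interpreted. Median scores of other classes in gated cells were low, for example 9.02 and 5.51 enterocyte-marker UMIs per 10000 in enteroendocrine-gated cells against 322 and 401 in enterocyte-gated cells. Of the listed immune and mesenchymal markers, Ptprc, Col3a1 and Dcn had 0 UMIs in each set, and the others apart from Vim had at most 0.990 CPM (Cd79a and Itgam in set 1). Vim had 76.9 and 65.5 CPM, the endothelial marker Pecam1 4.90 and 3.23 CPM, and Tubb3, a tubulin of neurons, 6.98 and 5.83 CPM. The part of other cell types in the results was not tested.

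Levels are UMIs per 1000000 UMIs (CPM), summed over a group of cells, and intervals are 95% exact Poisson intervals that cover counting error only. The 8 genes fell into 4 patterns over the classes. S100g was highest in enterocyte-gated cells, S100a6, S100a11, S100a14 and S100a16 in revival-gated cells, S100a1 and S100a13 in enteroendocrine-gated cells, and S100a10 was broad, with its highest level in revival-gated cells and its lowest in enteroendocrine-gated cells. Each of these peaks was in the same class in both sets.

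**Figure D1:**
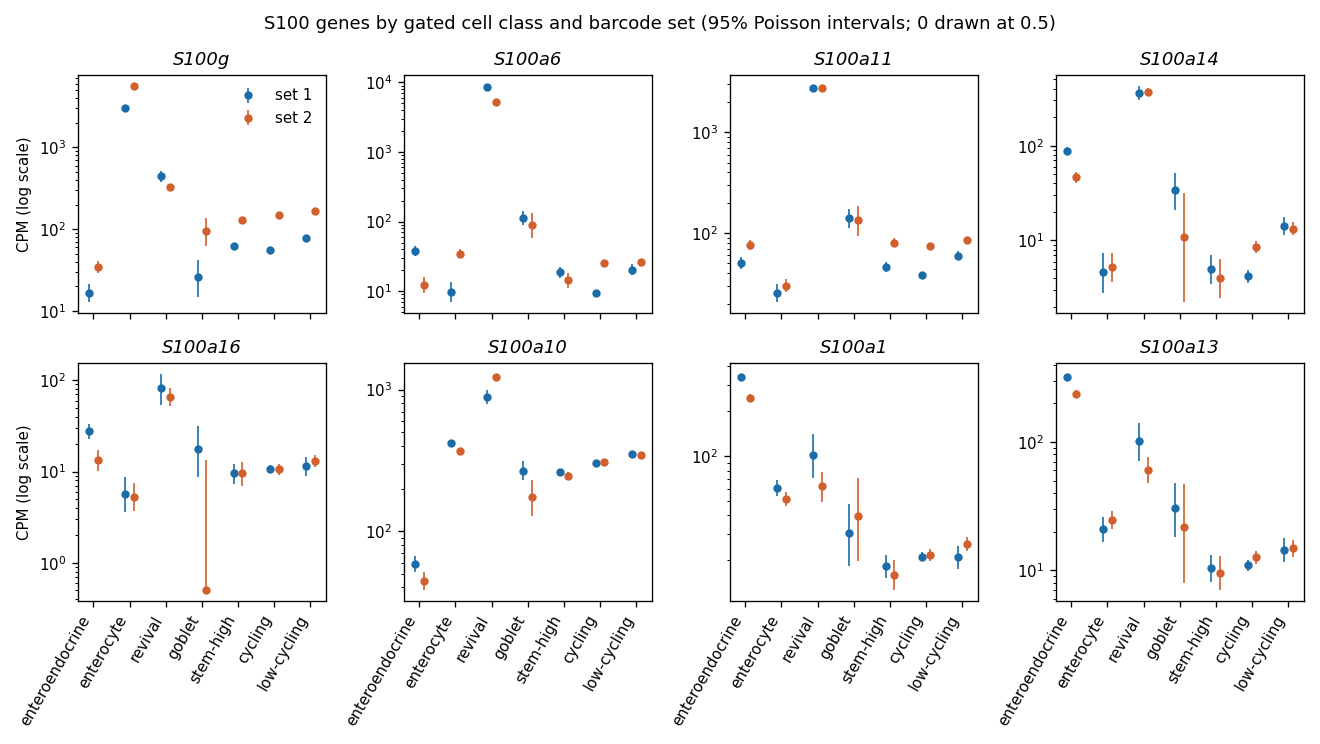
Level of each S100 gene (CPM, log axis) in 7 classes of cells, for set 1 (blue) and set 2 (orange); bars are 95% Poisson intervals, and a level of 0 is drawn at 0.5. S100g peaks in enterocyte-gated cells at 3047 and 5657 CPM, S100a6 in revival-gated cells at 8668 and 5286 CPM, and S100a1 in enteroendocrine-gated cells at 338 and 247 CPM.

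S100g, the calcium carrier of absorptive cells, stood at 3047 CPM (2992 to 3102) in the enterocyte-gated cells of set 1, and at 5657 CPM (5599 to 5717) in those of set 2. The other cells of the same set had 57.9 and 148 CPM. On the scale of log2(CPM + 1), the class stood above the other cells by 5.69 (5.64 to 5.75) in set 1 and by 5.24 (5.21 to 5.28) in set 2. Enterocyte-gated cells were 5.30% of the cells of set 1 and 10.1% of those of set 2, and held 77.7% and 84.1% of all S100g UMIs. In each set S100g was the only one of the 8 genes past 2-fold higher in this class and 4 were past 2-fold lower (S100a6, S100a11, S100a14 and S100a16). Of the 15474 genes 6.18% were higher and 12.4% lower in set 1, and 6.19% and 16.7% in set 2; in both sets at once 4.88% were higher and 10.1% lower.

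The level of S100g varied widely among enterocyte-gated cells. In set 1 the median cell had 4.75 S100g UMIs per 10000 and the highest 314, and in set 2 the median was 40.8 and the highest 344. A UMI was present in 107 of 122 cells (87.7%) and 171 of 178 cells (96.1%). Thinned to 2000 UMIs per cell, the expected shares with a UMI were 57.3% and 88.0%. Enteroendocrine-gated cells, a secretory type that does not absorb nutrients, gave 3.49% and 5.70% at that depth and 17.9% and 32.7% unthinned (median depth 14058 and 14511 UMIs, against 33110.5 and 34187.5 in enterocyte-gated cells). In set 1, 3 cells held 27.7% of the S100g UMIs of the class, and without these 3 cells the log2 difference was 5.27.

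**Figure D2:**
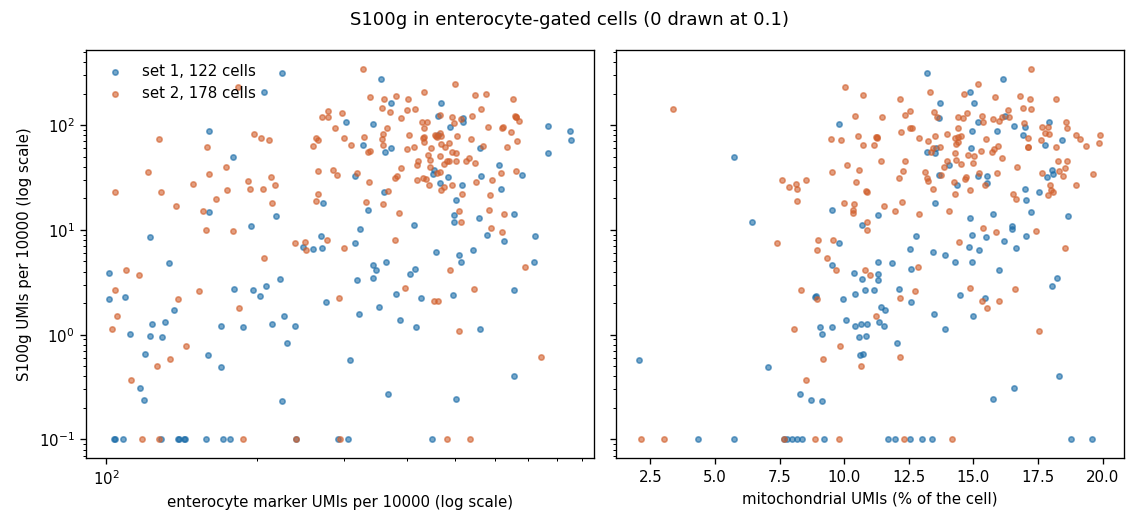
S100g UMIs per 10000 (log axis, 0 drawn at 0.1) in each enterocyte-gated cell, against the summed enterocyte markers (left, log axis) and the mitochondrial share of the cell (right, percent), for 122 cells of set 1 (blue) and 178 of set 2 (orange). Median S100g is 4.75 per 10000 in set 1 and 40.8 in set 2, and most of the high values lie in the 97 and 151 cells with over 10% mitochondrial UMIs.

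S100g was higher in enterocyte-gated cells that also had more of the other enterocyte genes. Across cells of the class, its Spearman correlation with Apoa4, an apolipoprotein of fat absorption, was 0.65 in set 1 and 0.34 in set 2, with Fabp2, a fatty acid-binding protein, 0.60 and 0.41, and with Sis, sucrase-isomaltase, 0.52 and 0.52 (122 and 178 cells of 1 library pool each, whose depth they share). With Fabp1 it was 0.31 and 0.20, and with S100a10 it was -0.13 and -0.04. The values are descriptions over cells and carry no test.

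Mitochondrial share moved with S100g within the class. In set 1 the 25 enterocyte-gated cells with at most 10% mitochondrial UMIs had 279 CPM of S100g (242 to 320), and the 97 cells above 10% had 3708 CPM (3640 to 3776). In set 2 the 27 and 151 cells had 1982 CPM (1894 to 2073) and 6330 CPM (6263 to 6399). The median enterocyte score of these cells was 179 and 361 per 10000 in set 1 and 207 and 430 in set 2, so the cells richer in mitochondrial RNA were also richer in enterocyte markers. In cells outside the class, S100g hardly differed between the same ranges, at 53.6 and 67.1 CPM in set 1 and 144 and 160 CPM in set 2. With cells limited to 10% mitochondrial UMIs, the class stood above other cells by 2.36 in set 1 and 3.78 in set 2 on the log2 scale. The part of the mitochondrial share in the result was not tested.

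Outside the enterocyte gate S100g was present at low levels in every large class. Cycling cells had 55.7 and 148 CPM, stem-high cells 61.9 and 131 CPM, low-cycling cells 78.6 and 168 CPM, and enteroendocrine-gated cells 16.6 and 34.7 CPM. Set beside Fabp1, the most abundant of the compared enterocyte markers, S100g had 15.8 UMIs per 100 Fabp1 UMIs in enterocyte-gated cells of set 1, 19.8 in enteroendocrine-gated, 17.5 in cycling and 14.4 in low-cycling cells, while stem-high cells had 65.4. In set 2 these ratios were 29.9, 53.2, 48.1, 38.0 and 123. Set beside Fabp2, S100g had 71.8 UMIs per 100 in enterocyte-gated cells of set 1 and 111 in those of set 2, against 8.74 and 36.3 in cycling cells and 230.3 and 252 in revival-gated cells. The share of free RNA in the low levels was not measured.

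Of 13 listed genes of calcium absorption and vitamin D action, 9 had at least 10 UMIs, and 1 of these, Atp2b1, the pump that moves calcium out across the basolateral membrane, was past 2-fold higher in enterocyte-gated cells of both sets (235 and 297 CPM, against 89.98 and 94.4 CPM in cycling cells). This count of 1 of 9 is near the 4.88% of all genes that were higher there in both sets. Atp2b1 was at least as high in enteroendocrine-gated cells, at 337 and 357 CPM. Vdr, the vitamin D receptor, had 121 and 176 CPM in enterocyte-gated cells and 98.8 and 71.3 CPM in cycling cells, a log2 difference from the other cells of 0.32 and 1.31. Trpv6, the apical calcium channel that takes calcium up, had 0 UMIs in enterocyte-gated cells, where 3 counts would be 0.783 CPM for set 1 and 0.482 for set 2. Trpv5, a related channel, Cyp24a1, the vitamin D-induced enzyme that degrades the hormone, and Calb1, the larger calbindin, also had 0 UMIs there. Among enterocyte-gated cells, S100g had a Spearman correlation of 0.57 and 0.38 with Vdr and 0.61 and 0.41 with Atp2b1.

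S100a6, S100a11, S100a14 and S100a16 were all highest in the revival-gated cells. S100a6 (calcyclin, which binds annexins and the calcyclin-binding protein) had 8668 CPM (8360 to 8985) in the 14 cells of set 1 and 5286 CPM (5158 to 5417) in the 23 cells of set 2, against 27.5 and 46.5 CPM in the other cells. The log2 difference was 8.25 (8.16 to 8.34) in set 1 and 6.80 (6.73 to 6.87) in set 2. S100a11 (calgizzarin, a partner of annexin A1) had 2711 and 2735 CPM, which differed by less than counting error, and stood 5.82 and 5.01 above the other cells. S100a14 had 361 and 371 CPM, 4.77 and 4.45 above the other cells, and S100a16 had 81.4 and 66.0 CPM, 2.701 and 2.44 above them. S100a16 rested on 28 and 80 UMIs, and without the 3 cells of the class richest in it its level was 37.1 and 28.4 CPM and its difference 1.59 and 1.26.

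Counted against 2-fold, 7 of 8 members were higher in the revival gate and 0 were lower in set 1, where 12.8% of the 15474 genes were higher and 19.1% lower. This count turned on few cells: without the 3 cells of the class richest in each gene, an alternative chosen after the values were seen, 4 members were higher and 2 lower in set 1. S100a10 then stood at 0.69 in place of 1.59, S100a1 at 0.66 in place of 1.10, S100g at -1.05 in place of 0.86 and S100a13 at -1.27, its level falling from 102 to 14.1 CPM. For S100a13 these 3 cells held 91.4% of its 35 UMIs. In set 2, 5 members were higher and 1 was lower, with and without such cells, where 8.74% of genes were higher and 10.0% lower. The median log2 difference of the members was 2.15 and 2.25, beside -0.22 and -0.10 for all genes tested. The 5 higher in both sets were S100a6, S100a11, S100a14, S100a16 and S100a10. S100g, S100a1 and S100a13 were those that varied: S100g had 442 and 328 CPM in the class, while the other cells had 243 CPM in set 1 and 831 CPM in set 2. The 3 cells of the class richest in S100g held 85.5% and 77.6% of its UMIs there, and without them its level was 117 and 86.0 CPM. Median depth in the class was 15757.5 UMIs in set 1 and 53143 in set 2, and the part of that gap in the comparison of the sets was not tested.

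S100a11 was detected in nearly all revival-gated cells and S100a6 in fewer. S100a11 had a UMI in 14 of 14 cells of set 1 and in 22 of 23 of set 2, with a median of 21.9 and 16.3 UMIs per 10000, and the 3 cells richest in it held 59.5% and 47.8% of its UMIs in the class. S100a6 had a UMI in 12 and in 15 cells, with medians of 23.6 and 5.65 and highest values of 320 and 486 per 10000. The 3 cells richest in S100a6 held 86.4% of its UMIs in the class in set 1 and 68.0% in set 2, and 1 cell of set 2 alone had 2212. Without these 3 cells the log2 difference was 6.17 in set 1 and 5.54 in set 2. Outside the class the S100a6 share at 2000 UMIs was low, 1.77% and 3.97% in cycling cells (median depth 36152 and 38471 UMIs) against 79.5% and 56.3% in the class.

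**Figure D3:**
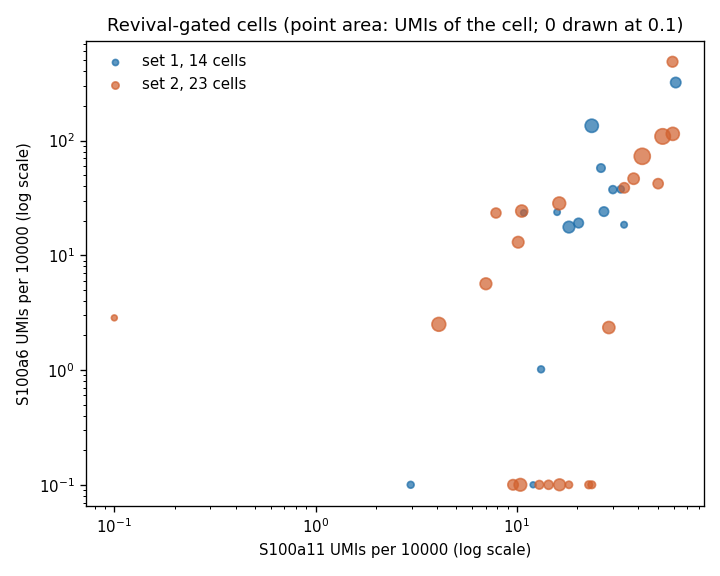
S100a6 against S100a11 (UMIs per 10000, both log axes, 0 drawn at 0.1) in the 14 revival-gated cells of set 1 (blue) and the 23 of set 2 (orange); point area follows the cell's UMI count. Nearly all cells hold S100a11, while 2 cells of set 1 and 8 of set 2 lie at 0 for S100a6.

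Msln (mesothelin, a cell surface glycoprotein) was found mostly in cells of the class with S100a6. After the values were seen, the class was divided into cells with 0 or 1 UMI of S100a6 (3 in set 1, 9 in set 2) and cells with 2 or more (11 and 14). Msln had 0 and 10.9 CPM in the former and 1491 and 569 CPM in the latter, and Anxa1 had 0 and 105 CPM against 571 and 648 CPM. A UMI of Msln was present in 9 of 11 and 12 of 14 cells with 2 or more S100a6 UMIs, and in 0 of 3 and 2 of 9 of the others. S100a11 was present in both, at 859 and 1389 CPM against 2846 and 3132 CPM, as was Il1rn, an interleukin receptor antagonist, at 172 and 200 CPM against 271 and 424 CPM. The cells low in S100a6 were shallower, with a median of 9859 and 24755 UMIs against 22933 and 60909, and the part of depth in the division was not tested. Over cells, the Spearman correlation of S100a6 with Msln was 0.75 and 0.90, and with S100a11 0.68 and 0.54 (14 and 23 cells). Msln and Anxa1 are markers of the gate, so the class was chosen in part by them.

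A further part of S100a6 lay in cells that passed more than 1 gate. Such cells were kept out of every class but counted among the other cells. They held 800 of the 1685 S100a6 UMIs outside the revival class in set 1 and 1108 of 2321 in set 2. These 45 and 50 cells held 17.1% and 12.7% of all S100a6 UMIs, with 1 cell of set 1 holding 730, while the revival gate held 63.9% and 73.4%. For S100a11 the revival gate held 24.5% and 44.3%, and cycling cells held 39.1% and 20.5%. Low levels of S100a11 were counted in all large classes, with 38.3 and 73.9 CPM in cycling cells and 25.6 and 30.2 CPM in enterocyte-gated cells, its lowest level among classes of at least 20 cells. Barcodes that the filter left out for over 50% mitochondrial UMIs had 61.9 and 81.3 CPM of S100a11. Those are scaled to non-mitochondrial UMIs, and the classes to all UMIs. The share of free RNA in the low levels of the classes was not measured, and they are not read as expression. The gene table also lists a pseudogene of S100a11 (S100a11-ps), with which reads could be shared.

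The genes that S100 proteins bind were in part higher in the revival gate. Of 10 listed partners 9 were tested, and 4 were past 2-fold higher in both sets (Anxa1, Anxa2, Anxa5 and Ahnak) and 1 was lower (Anxa6). Anxa1 is a marker of the gate and is no evidence. Anxa2, which forms a tetramer with S100a10, had 1393 and 1720 CPM in the class, against 79.7 and 85.5 CPM in cycling cells. Ahnak, a giant scaffold protein that binds the S100a10 and annexin A2 complex, had 375 and 190 CPM against 4.91 and 7.68 CPM. Cacybp, the calcyclin-binding protein that partners S100a6, had 87.3 and 134 CPM in the class and 154 and 162 CPM in cycling cells. In the background, 5.18% of all genes were past 2-fold higher in this class in both sets and 6.44% lower.

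Genes of the epidermal differentiation complex, which borders the S100 cluster on chromosome 3 and encodes proteins of the skin's cornified layer, were in part found in a few of the same cells. Of 15 listed genes 5 had at least 10 UMIs (Crct1, Sprr1a, Sprr2a1, Lor and Tchh). All 5 were past 2-fold higher in revival-gated cells of both sets, but on few cells, since in each set 3 cells or fewer held from 95.7% to 100% of each gene's UMIs in the class. Over all genes 5.18% were higher there in both sets. For Crct1, 153 of 162 and 2945 of 3053 UMIs came from the class. Crct1 had 445 and 2429 CPM there and 0.026 and 0.43 CPM in cycling cells, and Sprr1a had 145 and 316 CPM against 1.52 and 2.30 CPM. Sprr2a1 rested on few molecules, at 14.5 and 4.12 CPM in the class. No test was made of whether neighbouring position and level go together.

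S100a10, the annexin A2 ligand, was broad over the large classes, enteroendocrine-gated cells aside. It had 305 and 309 CPM in cycling cells, 261 and 246 CPM in stem-high cells, 351 and 343 CPM in low-cycling cells and 417 and 367 CPM in enterocyte-gated cells. Enteroendocrine-gated cells had 58.9 CPM (51.6 to 66.8) and 44.3 CPM (38.2 to 51.1), a log2 difference from the other cells of -2.40 and -2.93. Revival-gated cells had 893 CPM (796 to 999) and 1229 CPM (1167 to 1293). Anxa2 ran in the same order, at 32.9 and 37.7 CPM in enteroendocrine-gated, 241 and 245 CPM in enterocyte-gated and 1393 and 1720 CPM in revival-gated cells. Over revival-gated cells the Spearman correlation of S100a10 with Anxa2 was 0.42 in set 1 and 0.84 in set 2. In the barcodes with over 50% mitochondrial UMIs, S100a10 had 269 and 185 CPM when scaled to non-mitochondrial UMIs, and the share of free RNA in its levels was not measured. At 2000 UMIs per cell, S100a10 was expected in 44.1% and 42.9% of cycling cells and in 8.04% and 6.45% of enteroendocrine-gated cells.

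S100a1 and S100a13 were highest in enteroendocrine-gated cells. S100a1, best known as a regulator of calcium handling in heart muscle and also found in neurons, had 338 CPM (321 to 357) in set 1 cells and 247 CPM (232 to 262) in set 2 cells, against 26.7 and 29.6 CPM in the other cells. S100a13, which takes part in the release of fibroblast growth factor 1 by a route outside the classical secretory pathway, had 321 CPM (304 to 339) and 237 CPM (222 to 252), against 15.7 and 18.7 CPM. The log2 differences were 3.61 and 3.02 for S100a1 and 4.27 and 3.59 for S100a13. The class held 47.0% and 43.2% of all S100a1 UMIs and 58.99% and 53.5% of all S100a13 UMIs. At 2000 UMIs per cell, S100a13 was expected in 40.9% and 32.6% of the class and in 2.14% and 2.45% of cycling cells, and S100a1 in 36.8% and 31.1% and in 4.11% and 4.66%. Vim, a marker listed for mesenchymal cells, moved with this class, at 1127 and 761 CPM here and at most 2.47 CPM in enterocyte-gated, revival-gated and cycling cells, and the summed mesenchymal markers had a median of 6.05 and 3.58 UMIs per 10000 here and 0 in every other class. Of the list's other markers Col3a1 and Dcn were at 0 in all cells, and the part of this signal in the result was not tested.

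S100a14 was also higher in this class than in the other cells, with 87.8 CPM (78.9 to 97.4) in set 1 cells and 46.4 CPM (40.2 to 53.4) in set 2 cells, or 3.15 and 1.02 on the log2 scale (0.90 in set 2 without the 3 richest cells, which is under 2-fold). Thus 4 of 8 members were past 2-fold higher and 3 were lower in set 1, and 3 were higher and 3 were lower in set 2. Those lower were S100g, S100a6 and S100a10 in both sets. Over all genes 27.8% were higher and 8.77% lower in set 1, and 24.1% and 9.78% in set 2, with a median of all genes of 0.37 and 0.28 beside 0.48 and -0.45 for the members. The shares of members higher, 4 and 3 of 8, stand against a background where many genes are higher in this class: 21.3% were higher and 7.18% lower in both sets. Of the 9 tested S100 partners, Anxa5 (96.2 and 106 CPM) and Anxa6 (106 and 97.5 CPM) were higher in this class in both sets, and Anxa1, Anxa2 and Ahnak were lower.

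Within the enteroendocrine-gated cells, S100a1 and S100a13 were highest in cells with Tph1 and little or no Neurog3. After the values were seen, the class was divided in turn into cells with Neurog3, the factor of endocrine progenitors (113 and 71 cells), cells with Tph1, the enzyme of serotonin synthesis (106 and 100), cells with peptide hormones (Gcg, Sst, Cck, Gip, Nts, Pyy or Ghrl, 41 and 90) and others (19 and 8). S100a1 had 654 CPM (615 to 694) and 488 CPM (454 to 523) in the Tph1 cells, 138 and 138 CPM in the Neurog3 cells and 83.2 and 88.3 CPM in the peptide hormone cells. S100a13 had 523 CPM (488 to 559) and 408 CPM (377 to 441), then 206 and 171 CPM, then 149 and 122 CPM. The Neurog3 cells also held Tph1, at 1357 and 1749 CPM against 1212 and 2027 CPM in the Tph1 cells, but less Chga, the secretory granule protein chromogranin A, at 1240 and 2278 CPM against 11531 and 16211 CPM.

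**Figure D4:**
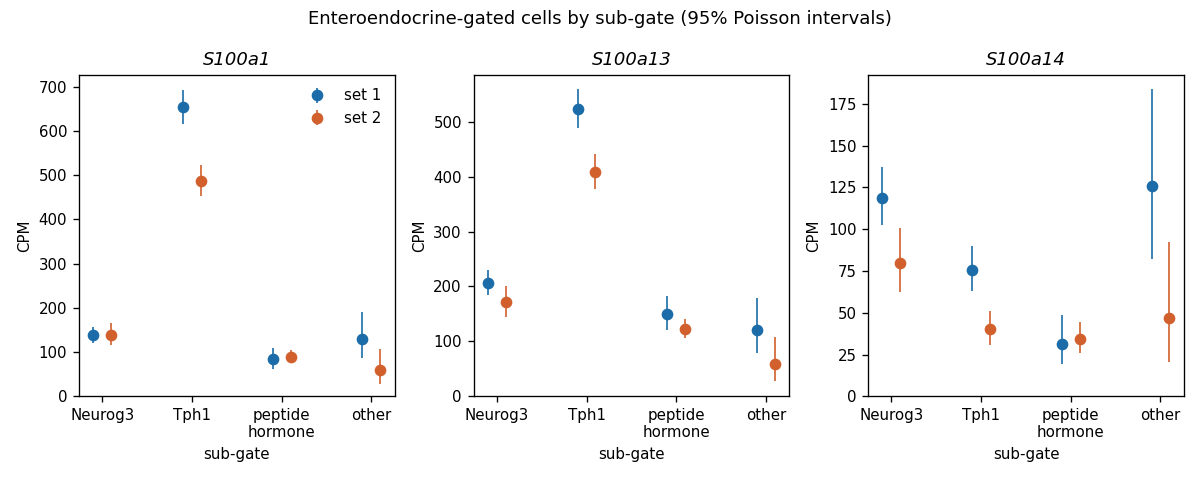
Levels (CPM, linear axis from 0) of S100a1, S100a13 and S100a14 in 4 divisions of the enteroendocrine-gated cells, for set 1 (blue) and set 2 (orange) with 95% Poisson intervals. S100a1 and S100a13 are highest in the Tph1 cells of each set, at 654 and 488 CPM and at 523 and 408 CPM, while S100a14 is higher in Neurog3 cells (119 and 79.8 CPM) than in Tph1 cells (75.5 and 40.1 CPM).

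Other members divided differently among the same cells. S100a14 had 119 CPM (102 to 137) and 79.8 CPM (62.4 to 100.7) in Neurog3 cells, against 31.4 and 34.2 CPM in peptide hormone cells; the 19 other cells of set 1 had 126 CPM (82.1 to 184). S100a11 was lowest in Tph1 cells, at 28.0 and 28.8 CPM, and highest in peptide hormone cells, at 100 CPM (77.4 to 128) and 145 CPM (127 to 165). S100a6 had 43.8 and 19.4 CPM in Tph1 cells and 12.6 and 1.86 CPM in peptide hormone cells. Median depth ran from 12774 to 18963.5 UMIs over these 3 divisions. Peptide hormone cells were 41 of the 279 cells of the class in set 1 and 90 of the 269 in set 2.

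Cell by cell, S100a1 and S100a13 went together. Their Spearman correlation over enteroendocrine-gated cells was 0.53 in set 1 (279 cells) and 0.62 in set 2 (269 cells). S100a1 with S100a14 gave 0.05 and 0.00, and S100a13 with S100a14 gave 0.10 and 0.02. S100a1 with Chgb, chromogranin B, gave 0.49 and 0.59. Over the 12 sums of classes with at least 20 cells, S100a1 and S100a13 had a Pearson r of 0.97 on log2(CPM + 1), S100a6 and S100a11 one of 0.93 and S100a14 and S100a16 one of 0.93, while S100g had its highest r among members with S100a10, 0.55. The sums share libraries, and the r values are descriptions. The revival class enters with its 23 cells of set 2 alone, so the values of S100a6 and S100a11 lean on 1 high sum, and the goblet class enters with its 25 cells of set 1.

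The genes most like each member over these 12 sums were taken from 4342 candidates with at least 50 CPM in a sum. A candidate could enter through 1 sum alone, and the highest r of so many candidates is high by selection. No function of a member is read from these genes. For S100g they were Ms4a10, Acsl5 and Bcap31 (r of 0.98 for each), of which Acsl5 activates fatty acids. For S100a6 they were Nfkbib, Zyx and Tnf (0.94 to 0.93), and for S100a11 Krt18, Ccnd2 and Krt23 (0.96 to 0.94), where Krt18 and Krt23 are keratins. For S100a14 they were Grpel2, Arf1 and Srp14, for S100a16 Traf4, Chic2 and Lamtor5, and for S100a10 Tspo, Foxq1 and Cdc42ep5 (0.98 to 0.97). For S100a1 they were Trib1, Ginm1 and Gch1 (0.98 to 0.97), Gch1 being the enzyme that starts the synthesis of the tetrahydrobiopterin cofactor of tryptophan hydroxylase. For S100a13 they were Kdm7a, Zbtb10 and Cd63 (0.99 for each), Cd63 being a membrane protein of late endosomes and secretory vesicles.

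Between the sets, 4 of the 8 members were past 1.5-fold, all of them higher in set 2, where 2.46% of the 15474 genes were higher and 1.40% lower (3.86% either way). Over all cells S100g went from 244 CPM (240 to 248), set 1, to 819 CPM (812 to 827), set 2, a log2 ratio of 1.74 (1.72 to 1.77). S100a6 had 75.7 and 171 CPM, a log2 ratio of 1.16 (1.11 to 1.22), and S100a11 had 61.8 and 147 CPM, 1.23 (1.18 to 1.29). S100a14 had 14.2 and 24.4 CPM, 0.74 (0.62 to 0.86). The other members were close to even: S100a10 at 299 and 319 CPM, S100a16 at 12.1 and 12.6 CPM, S100a1 at 47.2 and 47.7 CPM and S100a13 at 35.7 and 36.9 CPM. Each set is a single pool of barcodes, so the intervals hold no spread between cultures.

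**Figure D5:**
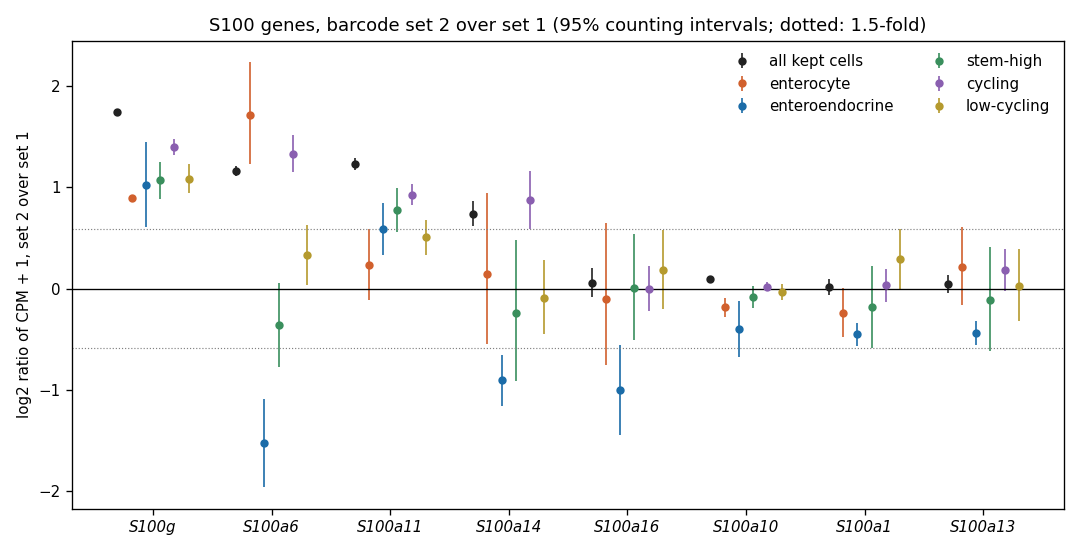
Log2 ratio of CPM + 1, set 2 over set 1, for each S100 gene in all kept cells and in 5 classes, with 95% counting intervals; the dotted lines mark 1.5-fold. S100g lies above the upper line in all kept cells (1.74) and in each class drawn, S100a6 lies above it in enterocyte-gated cells, where the value rests on 3 cells, and in cycling cells, and below the lower line in enteroendocrine-gated cells (-1.52), and S100a10 stays between the lines.

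Of the 4 members, S100g was higher in set 2 also within the classes. The log2 ratio was 0.89 (0.86 to 0.92) in enterocyte-gated, 1.02 (0.61 to 1.45) in enteroendocrine-gated, 1.07 (0.89 to 1.25) in stem-high, 1.40 (1.32 to 1.48) in cycling and 1.08 (0.94 to 1.23) in low-cycling cells. In revival-gated cells it was -0.43 (-0.70 to -0.15), a counting interval over levels of which 3 cells in each set held most UMIs, and -0.44 without them. Within enterocyte-gated cells S100g was higher in set 2 in each range of mitochondrial share, and per 100 Fabp1 UMIs it was 29.9 against 15.8. Barcodes that the filter left out showed the same order. Those with over 50% mitochondrial UMIs had 192 and 492 CPM of S100g, scaled to non-mitochondrial UMIs. These levels were above those of cycling (55.7 and 148 CPM), stem-high (61.9 and 131 CPM) and low-cycling cells (78.6 and 168 CPM). They were also above the 16.6 and 34.7 CPM of enteroendocrine-gated cells. The share of free RNA in the ratios of these classes was not measured.

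S100a11 was higher in set 2 by 0.93 (0.83 to 1.03) in cycling cells and 0.78 (0.56 to 0.997) in stem-high cells. It was higher by 0.59 (0.33 to 0.84) in enteroendocrine-gated cells and 0.51 (0.33 to 0.68) in low-cycling cells. Enterocyte-gated (0.23, -0.12 to 0.59) and revival-gated cells (0.01, -0.09 to 0.12) were within counting error. Outside the revival gate these ratios compare low levels, such as 38.3 and 73.9 CPM in cycling cells. Barcodes left out for over 50% mitochondrial UMIs had 61.9 and 81.3 CPM, scaled to non-mitochondrial UMIs. The ratios describe counts and are not read as changes of expression, and the share of free RNA was not measured. Within the enteroendocrine gate, S100a11 had 28.0 and 28.8 CPM in Tph1 cells, 53.4 and 42.7 CPM in Neurog3 cells and 100.5 and 145 CPM in peptide hormone cells, which were 41 of 279 cells in set 1 and 90 of 269 in set 2. S100a6 moved both ways, by 1.33 (1.15 to 1.52) in cycling cells and 1.72 (1.23 to 2.24) in enterocyte-gated cells, and by -1.52 (-1.96 to -1.09) in enteroendocrine-gated cells and -0.71 (-0.78 to -0.65) in revival-gated cells. In enterocyte-gated cells of set 2, 3 cells held 89.9% of the S100a6 UMIs, and without the 3 richest cells of each set the ratio was 0.04. In revival-gated cells the ratio of S100a6 without such cells was 0.11, so its direction turned. S100a14 was higher in set 2 in cycling cells (0.87, 0.59 to 1.16) and lower in enteroendocrine-gated cells (-0.91, -1.16 to -0.66). Revival-gated cells were 0.609% of set 1 (0.333% to 1.02%, exact binomial) and 1.30% of set 2 (0.827% to 1.95%), and they held 14.2% and 36.1% of all S100a14 UMIs.

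The count of members past 1.5-fold within each class is given beside the share of all genes, without a test. In cycling cells, the class with the most UMIs in each set, 4 of 8 were higher and 0 lower. Of 13472 genes 1.92% were higher there and 1.99% lower. The 4 were S100g (55.7 and 148 CPM in cycling cells), S100a6 (9.56 and 25.6), S100a11 (38.3 and 73.9) and S100a14 (4.19 and 8.50). Barcodes left out for over 50% mitochondrial UMIs had 192 and 492, 32.7 and 40.1, 61.9 and 81.3, and 10.3 and 9.92 CPM of them. The latter are scaled to non-mitochondrial UMIs, and the share of free RNA in the count was not measured. In enterocyte-gated cells 2 were higher (S100g and S100a6) and 0 lower, where 4.99% of 11071 genes were higher and 8.39% lower. In enteroendocrine-gated cells 2 were higher (S100g and S100a11) and 3 lower (S100a6, S100a14 and S100a16), where 4.44% of 12489 genes were higher and 8.05% lower. In stem-high cells 2 were higher (S100g and S100a11), where 6.70% of 11433 genes were, and in low-cycling cells 1 (S100g), where 3.13% of 11948 genes were. In revival-gated cells 3 were lower (S100a6, S100a1 and S100a13), where 15.5% of 8721 genes were lower and 22.1% higher. Without the 3 cells of the class richest in each gene in each set, 2 were higher there (S100a10 at 0.87 and S100a13 at 1.49, in place of 0.46 and -0.73) and 1 lower (S100a1), so no direction is read for S100a6 and S100a13. The same change took S100a6 in enterocyte-gated and S100a11 in enteroendocrine-gated cells (0.57) under 1.5-fold and S100a6 (0.73) and S100a11 (0.72) in low-cycling cells past it, while no count changed in cycling or stem-high cells. The call of S100a14 in all cells did not hold when each cell counted equally (0.11) or without the top 5% of cells by UMI count (0.20), and that of S100a6 became 0.67 when each cell counted equally.

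The other S100 genes had low levels. Of 9 listed family members 8 were in the gene list and 6 had at least 10 UMIs. S100a3 had 71 and 79 UMIs (1.15 and 1.55 CPM) and S100a5 had 73 and 47 (1.18 and 0.920 CPM). S100a2, which was in the gene list but not among the 9 listed family members, had 3 and 4 UMIs. S100a9, a subunit of the calprotectin of neutrophils, had 0 UMIs (3 counts would be 0.0487 CPM for set 1 and 0.0587 for set 2), and its partner S100a8 had 1 UMI in each set. S100a4 had 5 and 24 UMIs and S100a7a had 16 and 62. For S100a7a 13 of 16 and 59 of 62 UMIs came from that class, 54 of them from 1 cell of set 2, so it passed the minimum only through that class and no call is read from it. S100b, a marker of glia, had 50 and 43 UMIs, while Sox10, the glial transcription factor, had 0 and 1.

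Among 15 other EF-hand genes 14 were tested, and the counts past 2-fold in both sets are given beside the share of all genes. In enterocyte-gated cells Calml4, a calmodulin-like protein of the brush border, was past 2-fold higher in both sets (679 and 736 CPM, against 276 and 289 CPM in cycling cells), and Rcn1 and Rcn2, calcium binders of the endoplasmic reticulum, were lower, where 4.88% of all genes were higher and 10.1% lower. In enteroendocrine-gated cells Rcn1 was higher (51.5 and 33.8 CPM) and Sri, sorcin, was lower, where 21.3% of all genes were higher and 7.18% lower. In revival-gated cells Pdcd6 (489 and 331 CPM) and Chp1 (128 and 102 CPM) were higher and Rcn1 was lower, where 5.18% and 6.44% of all genes were. With so few genes these counts are not told apart from the background. Calb2 (calretinin) had 0 UMIs in both sets. Between the sets 0 of the 14 were past 1.5-fold, where 3.86% of all genes were.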

How the data were processed

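The deposited values are UMI counts per gene and barcode, made by the authors with Cell Ranger 3.1.0, bcl2fastq 2.20.0 and STAR 2.7.3a, per the submitters' processing notes; libraries were Chromium 3′ v3, sequenced on an Illumina instrument, per the labels' protocols. The genome build, annotation and strand setting are not given in the sources used here. Cells were barcodes with 500 or more genes, 1000 or more UMIs and a mitochondrial share up to 20%; 29 barcode sequences occur with both suffixes, which covers 7 kept cells. UMIs were summed per class and set and scaled to CPM, with exact Poisson, Clopper-Pearson or conditional binomial intervals at the 95% level, for counting error only. Log2 ratios used a pseudocount of 1 CPM, which understates low genes; differences past 1.5-fold between sets and 2-fold between classes were counted over genes with at least 10 UMIs. Beside counts of 0 stands the level of 3 counts.

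Gates summed marker UMIs per 10000: at least 30 for enteroendocrine, 100 for enterocyte, 50 for goblet, 100 for Paneth, 5 for tuft and 2 for revival cells, with at least 3 UMIs of 2 markers. Cells in more than 1 gate were left out of the classes but counted among the other cells that a class was compared with. No doublet caller was run. One marker of the revival gate is not reported here. Ungated cells were stem-high at a stem score of 10, else cycling at a proliferation score of 10. The thresholds were set after seeing the scores, and the members, markers and lists were chosen with earlier results of these data known. Named genes were the 8 members, fixed lists (those over 20 CPM, or over 2-fold apart between classes) and the 3 genes most like each member; genes at 0 were named after their values were seen. Shares of cells were thinned to 2000 UMIs by the hypergeometric expectation. Alternatives covered the pseudocount, cell filters, scaling, gates and leading cells; leaving out the 3 leading cells of each class for every member was added after seeing the data. The ratio between the sets was tested on simulated Poisson counts with known changes in 200 genes. The simulation had no spread between cells, so it does not bear on values that rest on few cells. Python 3.11.15, numpy 2.4.6, scipy 1.17.1 and pandas 2.3.3 were used.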

Additional observations from a re-analysis of the deposited data

How the results depend on the processing

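The count of S100 genes past 1.5-fold between the sets was 4 of 8, and 3 or 4 under the 10 alternatives. Log2 ratios between the sets ran from 1.67 to 1.99 for S100g, 0.67 to 1.78 for S100a6, 0.69 to 1.37 for S100a11 and 0.11 to 0.88 for S100a14, which fell under 1.5-fold with a pseudocount of 10 CPM (0.51), with each cell counted equally (0.11) and without the top 5% of cells by UMI count (0.20). The class differences of S100g in the enterocyte gate and S100a6 in the revival gate were recomputed, though not under other pseudocounts, and these 4 kept their direction in each alternative run. In the order S100g in the enterocyte gate of set 1 and of set 2, then S100a6 in the revival gate of set 1 and of set 2, they were 5.33, 5.41, 7.73 and 7.16 with each cell counted equally, 5.34, 5.29, 7.08 and 6.14 without the top 3 cells of the gene in the class and among the other cells, 5.81, 5.30, 9.19 and 8.29 without the top 5% of cells, 5.84, 5.07, 9.01 and 7.29 with the gate doubled, 5.11, 5.04, 8.12 and 6.71 with it halved, and 5.60, 5.29, 8.79 and 7.35 with cells in more than 1 gate counted in each. With at most 10% mitochondrial UMIs, S100g fell to 2.36 and 3.78 and S100a6 of set 1 was 9.26. Without a mitochondrial limit, S100g was 5.54 and 5.12 and S100a6 of set 2 was 7.09. Scaled to non-mitochondrial UMIs, S100g was 5.75 and 5.32. The cause of these shifts was not tested. An alternative chosen after seeing the data left out the 3 cells of a class with most UMIs of each gene. It reversed S100a13 in the revival class over other cells of set 1 (-1.27) and, between the sets within that class, S100a6 (0.11) and S100a13 (1.49). At least 2000 genes per cell, or leaving out barcode sequences with both suffixes, moved none of these 4 beyond counting error. No paired analysis was possible because each set is 1 pool of barcodes with no replicate number. Depth limits S100a14 and S100a16 in enterocyte-gated cells (18 to 33 UMIs), and the number of cells (14 and 23) limits all members in the revival gate.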
